A study of Homo sapiens with 9 samples.

Results

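Convergent genes lie tail to tail on opposite strands, so that transcription of each runs toward the other and their 3′ ends meet. In the human annotation Gencode v44, 1738 pairs of protein-coding genes met the rule used here: the genes lie on opposite strands, their bodies overlap only at the 3′ ends, or their ends are at most 1 kb apart. The annotated bodies overlap in 1230 pairs and a gap separates them in 508 pairs. The pairs hold 3377 of 20046 protein-coding genes, and 98 of these genes belong to more than 1 pair.

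The molecules were measured by TIF-Seq2, which reads the capped 5′ end and the polyadenylated 3′ end of the same RNA molecule as a read pair. The 4 libraries were made from K562, an established human erythroleukemia line that carries the BCR-ABL1 fusion, after 24 h in 1 µM imatinib, a tyrosine kinase inhibitor, or in DMSO, its solvent, with 2 libraries per condition. The methods of the study describe the libraries of a condition as biological replicates, and p-values here measure the spread between these 2 libraries per condition. Each library held 2049853 to 4636566 read pairs after filtering.

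Of 10 erythroid marker genes, 9 had read pairs in all libraries and TFRC had 0 or 1. Of the lymphoid markers that K562 should lack, CD3E, MS4A1 and CD79A had 0 or 1 read pair, whereas CD3D had 7 to 300.

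A messenger RNA receives its poly(A) tail after cleavage a short distance downstream of a poly(A) signal, most often AATAAA. RNA polymerase continues past the cleavage site before it is released, so convergent genes can be transcribed through each other even when their mature RNAs do not overlap. Where the mature 3′ ends do overlap, the RNAs of both genes carry sequence complementary to each other.

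A read pair was given to a gene when its 5′ end lay inside the gene on the gene's strand and its 3′ end within 5 kb of the annotated gene end. Both genes had at least 1 read pair in 987 pairs and at least 20 over the 4 libraries in 528 pairs. In 31 of these 528 the annotated overlap was 5 kb or more. The 5 kb window alone then puts all counted molecules past the partner's end, and these pairs were set apart. The remaining 497 pairs, with a median of 340.5 read pairs per gene, are the measured pairs below. The most used poly(A) site of a gene is the cluster of 3′ ends, joined within 10 bp, that held the most read pairs. Overlaps of sites and molecules below are overlaps of genomic positions. The counted read pairs give the ends of a molecule and not its exons, so shared sequence of the mature RNAs was not measured.

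The last 30 bases before the most used poly(A) site are shown for 6 pairs, chosen for 3 arrangements: sites that meet within a few bases, sites that overlap, and sites that stay apart although the annotated genes overlap. The sequences were read from hg38 on the strand of each gene, 5′ to 3′, with the last base at the poly(A) site, and capitals mark the AATAAA or ATTAAA nearest to it.
EIF4A2: tgaatgttaAATAAAttgtatattcacttt
RFC4: agttgtaataaaAATAAAatgaccaaaagc
NOP56: cgtgttccccAATAAAaacaaattcacaag
IDH3B: atgtaaggtgttcAATAAAgaacatgaacc
ACAT2: gttataAATAAAaggaacatcagatcaatc
TCP1: tattacacATTAAAgtaaagtacaagctgt
SSB: ctAATAAAatatatactatatgaaaagagc
METTL5: tatttaaaatgAATAAAaaattggtttact
EIF5A: aaacctgAATAAAactacaagtttaatatg
GPS2: ccaggccAATAAAatctacctgccactgcc
RPL36A: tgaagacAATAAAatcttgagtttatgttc
GLA: atgtcATTAAAagacttactttaaaatgtt

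The EIF4A2 sequence covers chr3:186789865-186789894 on the plus strand and the RFC4 sequence chr3:186789901-186789930 on the minus strand, so 6 bases of the genome separate these poly(A) sites. EIF4A2 encodes an RNA helicase of translation initiation and RFC4 a subunit of the clamp loader of DNA replication. The NOP56 sequence ends at the last base of chr20:2658363-2658392, and the minus-strand IDH3B sequence, chr20:2658397-2658426, ends 5 positions further on, with 4 bases between the sites. NOP56 is a core protein of box C/D small nucleolar RNPs and IDH3B a subunit of mitochondrial isocitrate dehydrogenase.

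In the ACAT2/TCP1 and SSB/METTL5 pairs the sites pass each other. The ACAT2 sequence lies at chr6:159779021-159779050 and the TCP1 sequence at chr6:159778955-159778984, an overlap of 96 bp between RNAs that encode a thiolase of the sterol pathway and a subunit of the CCT chaperonin. The SSB sequence lies at chr2:169812030-169812059 and the METTL5 sequence at chr2:169811760-169811789, an overlap of 300 bp. SSB is the La protein, which binds the 3′ ends of RNA polymerase III transcripts, and METTL5 is an rRNA methyltransferase.

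The EIF5A/GPS2 and RPL36A/GLA sites stay apart within annotated overlaps of 1140 bp and 2883 bp. The EIF5A sequence lies at chr17:7312424-7312453, in an intron of GPS2, and the GPS2 site was 205 bp away with its sequence at chr17:7312659-7312688. The RPL36A sequence lies at chrX:101395765-101395794, in an intron of GLA, and the GLA sequence at chrX:101397803-101397832, with 2008 bp between the sites. EIF5A is a translation factor, GPS2 a subunit of a nuclear corepressor complex, RPL36A a ribosomal protein and GLA the lysosomal alpha-galactosidase.

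In most measured pairs the mature RNAs of both genes did not overlap at the sites most used in K562. The most used sites overlapped in 109 of 497 pairs (21.9%), with a median overlap of 118 bp and quartiles of 51 and 604 bp. In the other 388 pairs the sites were apart by a median of 741 bp. The sites lay within 50 bp of each other in 49 pairs, of which 27 overlapped and 22 did not, and within 200 bp in 144 pairs. In 20 pairs the sites overlapped by over 1 kb.

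**Figure D1:**
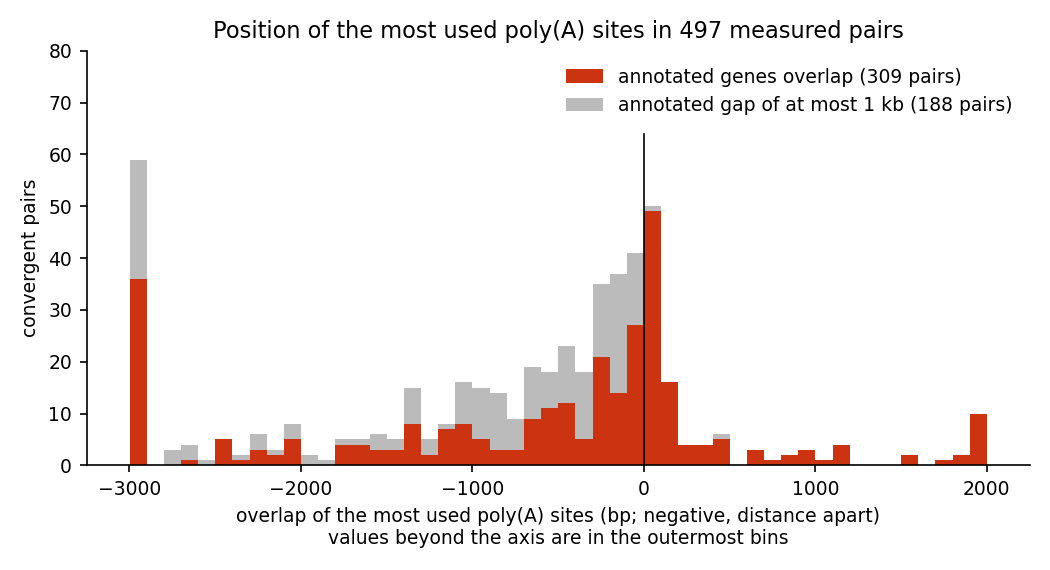
Overlap of the most used poly(A) sites in bp (horizontal axis, negative values are distances apart, bins of 100 bp) and number of measured convergent pairs (vertical axis). Red marks the 309 pairs whose annotated genes overlap and grey the 188 pairs with an annotated gap. The tallest bin next to 0 is red and on the overlapping side, and grey is almost absent to the right of 0, where 2 pairs with an annotated gap lie.

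Overlap of the sites was nearly limited to pairs whose annotated genes overlap. It was found in 107 of 309 such pairs (34.6%) and in 2 of 188 pairs with a gap (1.06%). The annotation sets much of this split. Across a gap, sites can overlap only if a most used site lies past the annotated end of its own gene. Of the measured members, 0.72% had their most used site more than 20 bp past that end. Among annotated overlaps of up to 100 bp the sites overlapped in 24 of 74 pairs (32.4%), from 101 to 500 bp in 20 of 50 (40%), from 501 to 1000 bp in 12 of 31 (38.7%) and from 1001 to 2000 bp in 13 of 69 (18.8%). Above 2 kb and up to 5 kb the count was 38 of 85 (44.7%). In that class the window admitted only ends less than 3 kb short of the partner's end, so this count is set in part by the window. In the 31 pairs set apart for longer overlaps, the sites overlapped in 28.

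**Figure D2:**
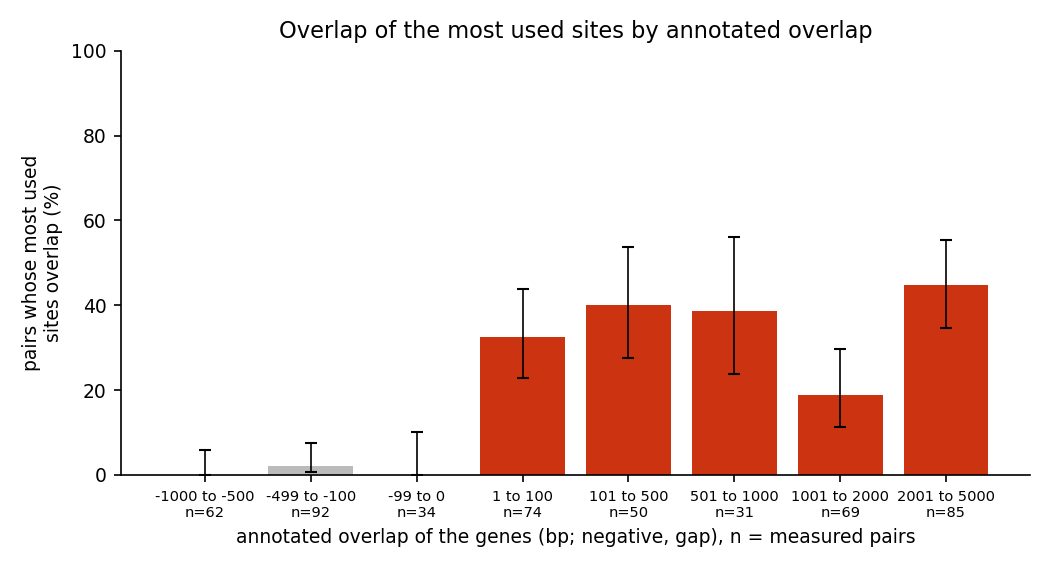
Percent of measured pairs whose most used poly(A) sites overlap (vertical axis), by the annotated overlap of the genes in bp (horizontal axis, negative values are gaps, n is the number of measured pairs). Bars are shares and error bars 95% Wilson intervals. The grey bars of pairs with a gap stand at 0 to 2.17% and the red bars of pairs with annotated overlap at 18.8 to 44.7%.

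The 2 pairs with a gap whose sites overlapped rest on reads that other genes claim as well. All 183 read pairs of ENSG00000285133, the partner of MARS1 across a gap of 142 bp, also met the rule for DDIT3, a stress-induced transcription factor whose annotated body contains that gene model. Of the read pairs of ATP5MF-PTCD1, the partner of BUD31, 98.1% also met the rule for PTCD1. When reads that fall to several protein-coding genes of a strand were left out, 0 of 170 pairs with a gap had overlapping sites.

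The molecule overlap share compares single molecules instead of sites. Each plus-strand molecule of a pair was set against each minus-strand molecule, and the share is the percentage of these combinations in which the plus-strand 3′ end lay at or past the minus-strand 3′ end. The share was spread unevenly over the 497 pairs, with a median of 2.27% and quartiles of 0.032% and 28.4%. It was 0 in 103 pairs, below 1% in 208 pairs including those, from 1% to 50% in 184, and over 50% in 105, of which 70 exceeded 90%. The median was 12.5% in pairs with annotated overlap and 0.0024% in pairs with a gap. Molecules of 1 pair in 1 library share their genes and their sites and are not replicates.

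At the limit of 1 kb on the gap, EML4/COX7A2L, just inside at 997 bp, had a molecule overlap share of 0, and DPCD/FBXW4, just outside at 1001 bp, one of 0.12%. The sites overlapped in 0 of 12 measured pairs with gaps within 100 bp below the limit and in 0 of 6 within 100 bp above it. The highest molecule overlap share was 18.2% among the former and 0.46% among the latter.

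By library, 102 pairs exceeded 50% in DMSO 1, 104 in DMSO 2, 108 in imatinib 1 and 107 in imatinib 2. The mean share over pairs was 22.8%, 22.9%, 23.2% and 23.6% in the same order, a spread of under 1 percentage point. In both values the imatinib libraries lay slightly above the DMSO libraries, and this was not tested. The median share over pairs, 1.33%, 1.61%, 1.83% and 1.32% in the same order, did not separate the conditions.

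The 10 pairs with the most read pairs in their less covered gene showed the whole range. The SSB/METTL5 share was 99.7% and 99.5% in the DMSO libraries and 99.8% and 99.6% in the imatinib libraries. The ACAT2/TCP1 share was 74.1% and 68.5% in DMSO and 70.3% and 82.9% in imatinib. Molecules of SSB and METTL5 thus overlapped in almost every combination, and those of ACAT2 and TCP1 in most, with the highest value in imatinib 2.

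The pairs whose sites nearly touch stayed near 0. The EIF4A2/RFC4 share was 1.81% and 2.53% in DMSO and 2.15% and 1.35% in imatinib. The NOP56/IDH3B share was 1.30% and 1.29% in DMSO and 0.99% and 1.06% in imatinib. The most used sites, a few bases of genome apart, held 50.6% of the EIF4A2 and 99.9% of the RFC4 read pairs. For the other pair they held 98.7% of the NOP56 and 99.97% of the IDH3B read pairs.

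ACTL6A/MRPL47, a subunit of chromatin remodelling complexes and a mitochondrial ribosomal protein, lay between these groups with 13.3% and 11.2% in DMSO and 14.3% and 12.5% in imatinib. MRPL47 had 13 sites with at least 2 read pairs, and the most used of them was 434 bp from the ACTL6A site. In this pair some MRPL47 molecules reached ACTL6A and most did not.

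Of the other 5 pairs, 4 had pooled shares of at most 0.062%. These were NDUFB10/RPS2 (a respiratory complex I subunit and a ribosomal protein), with sites 85 bp apart, TRIM28/CHMP2A (a corepressor and an ESCRT-III subunit), 850 bp apart, DKC1/MPP1 (the pseudouridine synthase dyskerin and an erythrocyte membrane scaffold), 1004 bp apart, and PNRC2/SRSF10 (an mRNA decay cofactor and a splicing factor), 3010 bp apart. The remaining pair, PPAN-P2RY11/EIF3G, had 0.43%, and 69.0% of the PPAN-P2RY11 read pairs also met the rule for other genes, mainly PPAN, which ends further upstream. Its share was 0 without the reads that fall to several genes and 1.52% with the Ensembl canonical transcript as gene body. With a window of 2 kb in place of 5 kb it was 75.0%, and that of PNRC2/SRSF10 was 3.28%. That window leaves out the most used PPAN-P2RY11 site, at position -3486 bp relative to its annotated end with 90.1% of its read pairs. It also leaves out the most used SRSF10 site, at -2102 bp with 49.8%. Both shares thus rest on the read pairs that remain.

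**Figure D3:**
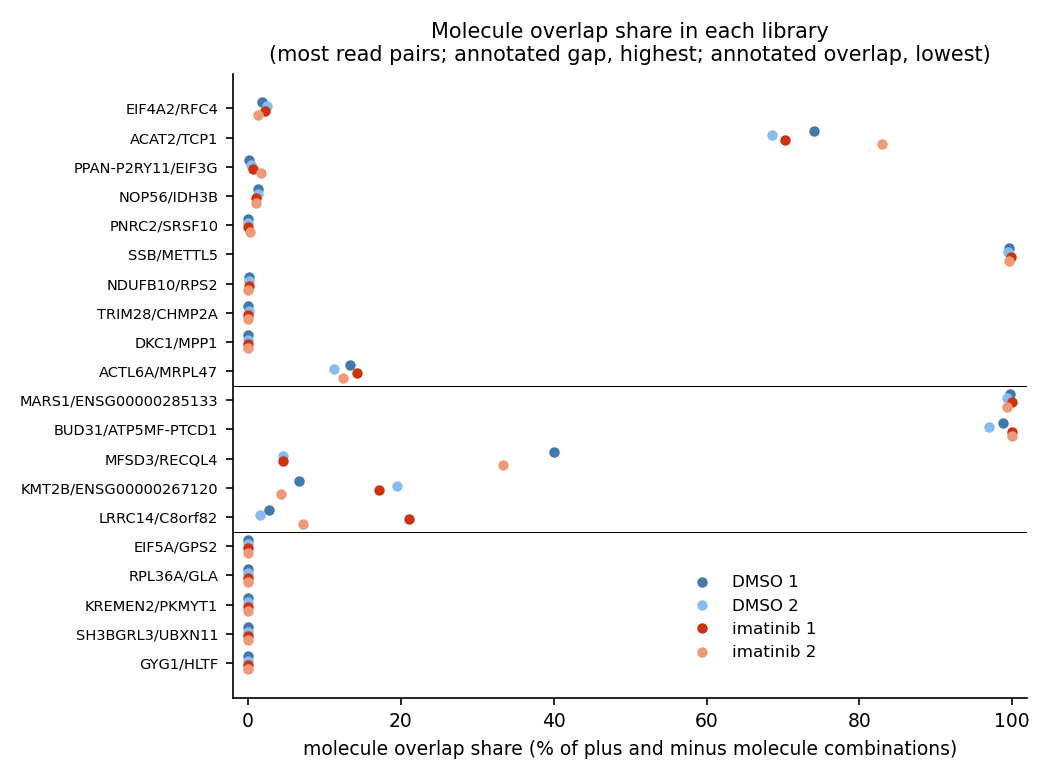
Molecule overlap share in percent (horizontal axis) of 20 pairs (vertical axis) in each library, blue for DMSO and red for imatinib. The upper 10 pairs have the most read pairs, and, among pairs with at least 50 read pairs per gene, the middle 5 have an annotated gap and the highest shares and the lower 5 an annotated overlap and the lowest shares. SSB/METTL5 stays above 99% in every library, ACAT2/TCP1 ranges from 68.5% to 82.9%, and the lower 5 pairs are all at 0.

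Pairs with annotated overlap could lack overlapping molecules altogether. Among pairs with at least 50 read pairs per gene, the 5 lowest were EIF5A/GPS2, RPL36A/GLA, KREMEN2/PKMYT1, SH3BGRL3/UBXN11 and GYG1/HLTF, all with a share of 0 in all 4 libraries. In each, nearly all molecules of one gene passed the partner's annotated end and none of the other did. For KREMEN2, a receptor of Wnt antagonists, 182 of 182 read pairs ended past the annotated end of PKMYT1, an inhibitory kinase of CDK1. For PKMYT1 it was 0 of 1071 read pairs, which allows a share of up to 0.28%, and its most used site was at position -4769 bp relative to its own annotated end. The annotated overlap of these pairs came from a long 3′ end of one gene model that these molecules did not use. All read pairs of GPS2 also met the rule for a second gene model on its strand, ENSG00000261915.

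Among pairs with a gap and at least 50 read pairs per gene, after MARS1/ENSG00000285133 and BUD31/ATP5MF-PTCD1 at 99.6% and 98.4%, the highest shares were low and varied between libraries. They were 14.4% for MFSD3/RECQL4, with 40% and 4.63% in DMSO and 4.55% and 33.3% in imatinib, 13.5% for KMT2B/ENSG00000267120 and 7.44% for LRRC14/C8orf82. MFSD3 had 62 read pairs in all and RECQL4 had 95, so the library values of this pair rest on few molecules, and without DMSO replicate 1 its share was 9.48%. The KMT2B/ENSG00000267120 share was 31.8% with a window of 2 kb. That window leaves out the most used ENSG00000267120 site, at position -3280 bp with 57.4% of its read pairs. All read pairs of ENSG00000267120 also met the rule for other genes of its strand, 267 of 465 for U2AF1L4. The LRRC14/C8orf82 share was 2.70% and 1.59% in DMSO and 21.0% and 7.14% in imatinib, and it was 2.64% without imatinib replicate 1 and 11.9% without DMSO replicate 2. Without the reads that fall to several genes, the BUD31/ATP5MF-PTCD1 share was 20.0%. This value rests on the few ATP5MF-PTCD1 read pairs left, since 506 of its 516 fell to PTCD1 as well.

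The measured members ended at their own annotated ends about as often as genes outside the convergent pairs of this rule, a description without a test. Of 972 genes in measured pairs, 49.4% had their most used site within 20 bp of the annotated gene end, against 52.2% of 6797 genes outside convergent pairs with at least 20 read pairs. In the 845 members with as many read pairs but in no measured pair it was 45.0%. The other genes below are the 6797 outside the pairs. The most used site held a median of 95.2% of the read pairs of a measured member and 90.4% of those of the other genes. The 40 bases up to the site held AATAAA in 62.2% of the members and ATTAAA without AATAAA in 16.3%, against 69.4% and 16.1% in the other genes. The search covered the transcribed strand alone, and where both hexamers occurred AATAAA was counted. The median distance from the first base of the hexamer to the site was 21 nt in both groups.

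In the 213 members whose site overlaps the partner's, 74.6% had either hexamer, and in the 96 members with sites within 50 bp of each other 74.0%. These values were below the 78.5% of all measured members, and the difference was not tested. Of the 218 sites in overlapping pairs, 165 (75.7%) lay in an annotated untranslated region of the partner, 35 (16.1%) in an intron, 11 (5.05%) in a coding exon of at least 1 partner transcript, 5 in another exon and 2 outside. The ACAT2 site was among those in a coding exon of TCP1.

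The second measure was the share of a gene's read pairs that ended past the partner's annotated end. It was over 50% for 413 of 994 gene and partner combinations (41.5%) and 0 for 276 (27.8%), with a median of 8.07%. Both genes passed the partner's end by this criterion in 126 pairs, 1 gene in 161 and neither in 210. The sites overlapped in 104 of the 126. The split follows the annotation, since the median was 97.8% in pairs with annotated overlap and 0 in pairs with a gap. When the partner's most used site replaced its annotated end, the share was over 50% for 214 combinations (21.5%) and the median was 0.19%.

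EIF4A2 and MRPL47 divided their molecules around the partner's annotated end. For EIF4A2 this depends on the annotation. Past the most used RFC4 site, which held 99.9% of the RFC4 read pairs, lay 2.08% of the EIF4A2 read pairs. For MRPL47 the share past the most used ACTL6A site was 13.4%. Of 3695 EIF4A2 read pairs 50.7% (95% Wilson interval 49.1 to 52.3%) ended past the annotated end of RFC4, with 46.7% and 46.9% in DMSO and 47.9% and 62.0% in imatinib. Of 3632 MRPL47 read pairs 13.4% (12.3 to 14.5%) passed the end of ACTL6A. In 1 of 4 libraries, imatinib 2, EIF4A2 stood above the others. The intervals cover counting error only.

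The next question was whether imatinib changed the levels of the members. Read pairs per gene were tested with edgeR's quasi-likelihood test over all protein-coding genes, and calls needed a Benjamini-Hochberg adjusted p below 0.05 and a log2 change of more than 1.5 up or down. Of 3377 members 1660 passed the filter on low counts, and 144 of these were called (8.67%), close to the 8.91% called among all 7759 genes tested. Higher after imatinib were 98 members (5.90%, against 5.62% of all genes), and lower were 46 (2.77%, against 3.29%). The median log2 change was 0.06 over the tested members and 0.03 over all tested genes. The number called depended on which library was left out, among the members and among all genes. Without DMSO replicate 2 the median log2 change was 0.12 over the tested members and 0.07 over all tested genes. Without imatinib replicate 1 it was -0.03 and -0.02. In bulk RNA, fewer cells of a type and less RNA per cell cannot be told apart.

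The 8 members with the largest rise included genes of red cells and platelets. EPB42 (protein 4.2 of the red cell membrane) had 3 and 4 read pairs in DMSO and 565 and 111 in imatinib (log2 fold change 6.79 ± 0.66 SE, adjusted p = 0.0017). TUBB1 (the beta-tubulin of platelets) had 3 and 6 in DMSO and 162 and 106 in imatinib (5.34 ± 0.45, adjusted p = 0.00091). Both were nearly silent in DMSO and did not overlap with it after imatinib.

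For the other 6 genes DMSO held at most 1 read pair in all. ESPN (the actin-bundling protein espin) had 0 and 0 read pairs in DMSO and 300 and 31 in imatinib. With the libraries of each condition pooled, it was at least 149-fold higher against a limit of 3 read pairs over both DMSO libraries. Imatinib 1 held 300 of the pooled read pairs, so this bound does not hold for imatinib 2 alone. NOXA1 (an activator of NADPH oxidase) had 0 and 0 against 26 and 9, at least 15.8-fold higher when pooled in the same way. SNX22, UTS2, SYTL3 and YPEL1 had 1 read pair over both DMSO libraries. Their ratios were also pooled, and the intervals cover counting error only. They were 97.3 (exact 95% interval 16.9 to 3898) for SNX22 and 93.3 (16.2 to 3738) for UTS2. For SYTL3 the ratio was 62.2 (10.6 to 2509) and for YPEL1 25.7 (4.08 to 1067). YPEL1 was not called by DESeq2 (adjusted p = 0.11) nor without either DMSO library (0.15 without DMSO replicate 1 and 0.12 without DMSO replicate 2).

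The 8 members with the largest fall included a cyclin, a transcription factor and a signalling adaptor. LCP2 (the adaptor SLP-76) had 57 and 93 read pairs in DMSO and 3 and 2 in imatinib (log2 fold change -4.40 ± 0.51, adjusted p = 0.0019). CCND1 (cyclin D1) had 13 and 36 in DMSO and 1 and 1 in imatinib (-3.98 ± 0.73, adjusted p = 0.0097). FOSL1 (the AP-1 subunit FRA1) had 197 and 506 in DMSO and 46 and 11 in imatinib (-3.21 ± 0.46, adjusted p = 0.0039). In all 3 genes both imatinib libraries lay below both DMSO libraries.

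KIFC3 (a kinesin motor) had 184 and 242 in DMSO and 18 and 12 in imatinib (-3.38 ± 0.37). MEIOSIN, TBC1D7, PHACTR1 and VGF fell by 3.44, 3.05, 2.88 and 2.82 on the log2 scale. Without DMSO replicate 2, CCND1 (adjusted p = 0.16) and VGF (0.36) were no longer called.

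Both genes were tested in 450 pairs, 1 gene was called in 67 of them and both in 4. In the 67 pairs the partner's log2 change had the same sign in 31 and the opposite sign in 36. Over the 450 pairs, Spearman's rho between the log2 changes of the plus-strand and the minus-strand gene was -0.02 and Pearson's r 0.01, a description across pairs that share libraries and, in part, genes.

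**Figure D4:**
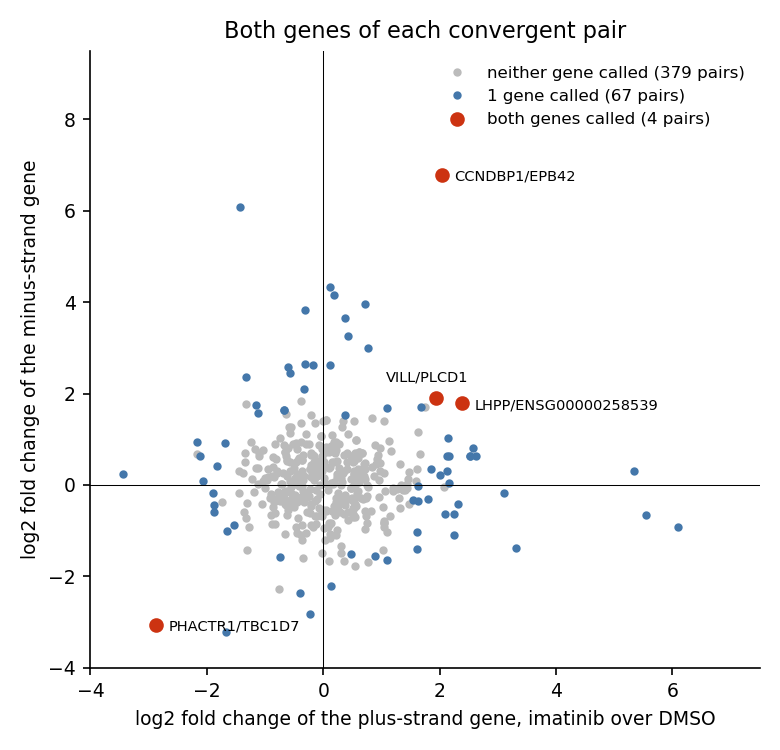
Log2 fold change of the plus-strand gene (horizontal axis) and of the minus-strand gene (vertical axis), imatinib over DMSO, for the 450 pairs with both genes tested. Grey points are pairs with neither gene called, blue points the 67 pairs with 1 gene called, and red points the 4 pairs with both called. The points form a cloud around 0 with arms along the axes, and 3 red points lie in the upper right and 1 in the lower left.

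The 4 pairs with both genes called moved in the same direction, 3 up and 1 down. CCNDBP1, which binds cyclin D, is the partner of EPB42 across a gap of 49 bp. It had 125 and 169 read pairs in DMSO and 623 and 294 in imatinib (log2 fold change 2.04 ± 0.29, adjusted p = 0.0039). PHACTR1, a regulator of protein phosphatase 1 and actin, and TBC1D7, a subunit of the TSC complex, overlap by 23905 bp in the annotation. PHACTR1 had 71 and 120 read pairs in DMSO and 13 and 6 in imatinib, and TBC1D7 had 40 and 39 against 4 and 3. Their most used sites overlapped by 19551 bp, which the window alone would give.

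The third pair was VILL/PLCD1, a villin-like protein and a phospholipase C, with a gap of 307 bp. VILL had 10 and 23 read pairs in DMSO and 82 and 18 in imatinib (1.93, adjusted p = 0.037), and its libraries overlapped in raw read pairs. PLCD1 had 113 and 171 against 585 and 232 (1.90, adjusted p = 0.0059). VILL was no longer called with DESeq2 (adjusted p = 0.063), with the replicate number as a block (0.082), or without DMSO replicate 1 (0.14) or imatinib replicate 1 (0.17). In the fourth pair, LHPP/ENSG00000258539, 98.4% of the read pairs of the second gene also met the rule for FAM53B. LHPP rose by 2.38 on the log2 scale (adjusted p = 0.014) and was no longer called without DMSO replicate 2 (0.058). ENSG00000258539 rose by 1.78 (adjusted p = 0.018) and lost its call without DMSO replicate 1 (0.097), DMSO replicate 2 (0.081) or imatinib replicate 1, where its log2 change was 1.43.

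The partners of 2 of the rising genes show the other cases. PER3, a circadian clock gene whose annotated end overlaps UTS2 by 2095 bp, had 160 and 283 read pairs in DMSO and 83 and 39 in imatinib (log2 fold change -1.42 ± 0.32, adjusted p = 0.020), short of the fold limit, while UTS2 rose. ATP5F1E, a subunit of ATP synthase and the partner of TUBB1, had 2221 and 3399 in DMSO and 2866 and 2022 in imatinib (0.30 ± 0.24, adjusted p = 0.46).

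Finally the share of molecules past the partner's annotated end was compared between conditions. The test was the interaction of class, past or short of that end, with treatment, in edgeR's quasi-likelihood model with a term per library. It ran over 518 tail-to-tail gene and partner combinations of any gene type with at least 10 read pairs in each class. Of these 2 were called (0.386%) at a Benjamini-Hochberg adjusted p below 0.05. Among the 364 member combinations tested, 1 was called and 29 had an unadjusted p below 0.05. DESeq2 called 0, with 11 below 0.05. Combinations below an unadjusted p of 0.05 were not counted over all 518, so the 29 and the 11 have no background to be set against.

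The called combination was BSDC1, a gene for a BSD-domain protein, and its ends past TSSK3, a testis-specific kinase gene 320 bp away. In DMSO 6 of 197 read pairs (3.05%, 95% Wilson interval 1.40 to 6.48%) and 5 of 256 (1.95%, 0.84 to 4.49%) passed TSSK3's end. In imatinib it was 105 of 692 (15.2%, 12.7 to 18.0%) and 33 of 297 (11.1%, 8.02 to 15.2%). Both imatinib libraries lay above both DMSO libraries (log2 odds ratio 2.57 ± 0.63 SE, adjusted p = 0.028). The call was lost with DESeq2 (adjusted p = 0.94), without the filter on low counts (0.92), with the replicate block (0.90) and without DMSO replicate 1 (0.98) or DMSO replicate 2 (1.00), and the lowest adjusted p over the alternatives was 1.8e-05, without imatinib replicate 2. BSDC1 itself had a log2 fold change of 1.50 ± 0.29 (adjusted p = 0.012) and was not called, since it did not reach the fold limit.

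**Figure D5:**
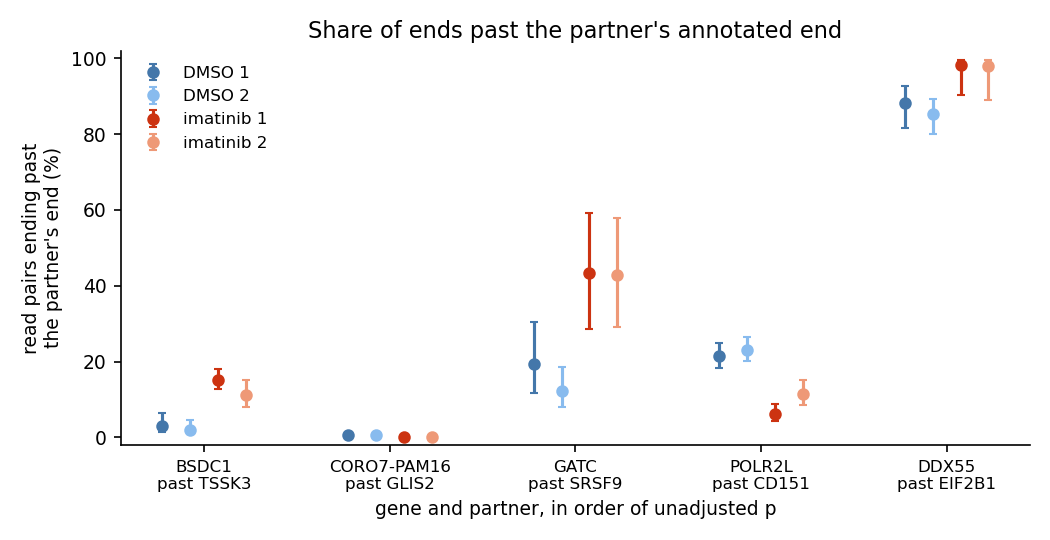
Percent of read pairs ending past the partner's annotated end (vertical axis) in each library for the 5 member combinations with the smallest unadjusted p (horizontal axis). Points are libraries, blue for DMSO and red for imatinib, and error bars 95% Wilson intervals, which cover counting error only. BSDC1 stands at 1.95 and 3.05% in DMSO and at 11.1 and 15.2% in imatinib, and in the other 4 combinations the conditions also do not overlap but the adjusted p is above 0.05.

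The next 4 combinations by p did not pass the adjustment and were chosen for naming after their values were seen. GATC, a subunit of the mitochondrial glutamyl-tRNA amidotransferase, passed the end of SRSF9, a splicing factor, in 19.4% and 12.3% of read pairs in DMSO and 43.2% and 42.9% in imatinib (log2 odds ratio 2.07 ± 0.66, adjusted p = 0.20). POLR2L, a subunit shared by the nuclear RNA polymerases, passed the end of CD151, a tetraspanin, in 21.4% and 23.1% in DMSO and 6.22% and 11.4% in imatinib (-1.62 ± 0.53, adjusted p = 0.20). For DDX55 past EIF2B1 the values were 88.2% and 85.3% in DMSO and 98.2% and 97.9% in imatinib (2.82 ± 0.92, adjusted p = 0.20). CORO7-PAM16 passed GLIS2 in 7 of 1430 and 10 of 1584 read pairs in DMSO and in 0 of 1090 and 0 of 662 in imatinib, which allows shares of up to 0.28% and 0.45% (adjusted p = 0.13).

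In the 213 pairs with at least 20 read pairs per gene in every library, the overlap share mostly varied little over the libraries. Many of these pairs lay near the lowest or the highest possible share, where little variation is possible. At intermediate shares the range was 14.4 percentage points for ACAT2/TCP1 and 11.4 for POLR2C/DOK4, but 3.06 for ACTL6A/MRPL47. Ranges were not counted by the level of the share. The range of the overlap share over the 4 libraries had a median of 1.04 percentage points, was below 5 points in 160 pairs and exceeded 20 points in 7. All 4 libraries lay on the same side of 50% in 208 pairs. The mean of the imatinib libraries exceeded that of the DMSO libraries by over 10 points in 8 pairs and was lower by over 10 points in 1, and the median difference was 0.00. These differences had no test.

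The 7 pairs with a range over 20 points, and TYMS/ENOSF1 just under it, were chosen after their values were seen. In 3 of them the conditions overlapped. EXOSC9/CCNA2 (an exosome subunit and cyclin A2) had 29.3% and 17.8% in DMSO and 24.5% and 52.9% in imatinib, a range of 35.1 points set by imatinib 2. DNM2/TMED1 (a dynamin and a p24 cargo receptor) was the pair that was lower by over 10 points, with 45.1% and 32.5% in DMSO and 17.2% and 36.4% in imatinib. C6orf136/DHX16, the latter a helicase of the spliceosome, had 18.0% and 33.5% in DMSO and 29.0% and 11.1% in imatinib.

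In the other 5 pairs both imatinib libraries lay above both DMSO libraries. Such separation was not counted over all pairs, and pairs with smaller ranges also separated the other way. SQSTM1/MRNIP had 5.63% and 5.84% in DMSO and 1.82% and 1.63% in imatinib. GATC/SRSF9 had 19.4% and 12.3% in DMSO and 43.1% and 42.6% in imatinib. INTS8/CCNE2 (an Integrator subunit and cyclin E2) had 48.4% and 62.0% in DMSO and 75.0% and 74.1% in imatinib. TYMS/ENOSF1 (thymidylate synthase and a gene that overlaps it) had 11.7% and 7.81% in DMSO and 23.1% and 27.8% in imatinib. The margin between the conditions was small in the remaining pairs. WDR48/GORASP1 (a cofactor of deubiquitinases and a Golgi stacking protein) had 56.3% and 46.5% in DMSO and 73.2% and 57.5% in imatinib. PRIMPOL/CENPU (a DNA primase and polymerase and a centromere protein) had 37.5% and 59.3% in DMSO and 60.0% and 59.6% in imatinib.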

How the data were processed

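TIF-Seq2 libraries of K562 cells, 2 with DMSO and 2 with imatinib, were analysed. The authors trimmed reads with cutadapt 1.16, aligned the 5′ and 3′ reads separately to hg38 with STAR 2.5.3a, kept uniquely mapped pairs, removed duplicates by molecular identifier and deposited raw counts of read pairs per combination of end positions. The deposited counts had no filter on internal priming. Totals were 3695520, 5135829, 4263670 and 2263121 for DMSO 1, DMSO 2, imatinib 1 and imatinib 2. The targeted long-read models and the 3T-fill libraries were not used here.

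Read pairs of 300 bp to 2 Mb without 7 or more A in the 10 nt after the 3′ end were kept. A read pair could count for several genes. Genes were taken from Gencode v44, and the sequences from the hg38 genome. Counts per gene were tested with edgeR 4.0.16 in R 4.3.3 (robust quasi-likelihood fit, TMM factors, filterByExpr, Benjamini-Hochberg adjustment over all genes tested), with DESeq2 1.42.0 as an alternative. For the share past the partner's end, both classes of a library had the same library size. Standard errors are the effect divided by the square root of F. The tests were also run on simulated counts with the same spread between libraries for all genes, which the real libraries need not have. These runs give no error rate for the data here. Positions were handled with Python 3.11.15.

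Named were the 10 pairs with the most read pairs in the less covered gene, the 5 pairs with a gap and the highest overlap share and the 5 with annotated overlap and the lowest (at least 50 read pairs per gene), the 8 called genes with the largest rise and fall, called shares past the partner, and pairs with both genes called. The members, the gene lists and the tests were chosen with earlier results of these data known.

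Replicates were distinct libraries, with a chi-square of 10.7 (DMSO) and 16.8 (imatinib) per degree of freedom between their counts. Intervals and limits for a count of 0 (3 read pairs) cover counting error only. Some genes that met these rules are not reported here.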

Additional observations from a re-analysis of the deposited data

How the results depend on the processing

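The window, the annotation and the depth limit the positions. The median molecule overlap share of 2.27% became 1.48% with a 2 kb window, 2.88% without the filter on A content, 1.88% with at least 100 read pairs per gene, 12.5% for pairs with annotated overlap, 0.0024% for pairs with a gap and 2.89% with overlaps of 5 kb or more (an alternative chosen after seeing the data), and it ranged from 1.62% to 2.31% when a library was left out, lowest without imatinib replicate 1. The median share past the partner's annotated end of 8.07% became 2.37%, 9.98%, 4.83%, 97.8%, 0 and 15.0% under the same alternatives, 3.59% with the Ensembl canonical transcript as gene body and 0.19% with the partner's most used site, and it ranged from 5.56% to 8.24% without a library. The 109 pairs with overlapping sites became 58 with at least 100 read pairs per gene, where fewer pairs were measured, and 2 among pairs with a gap, and 93 to 107 without a library. The other alternatives moved these 3 results by less than the spread between libraries or, for the count, by less than 1.5 times.

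The 144 called members ranged from 88 to 223 without a library. DESeq2 called 112, and 202 passed without the filter on low counts, where more genes were tested. The replicate block gave 109 called members. The differences between replicates correlated at -0.34 across conditions, which is no sign of pairing by number, and a block that crosses the numbers, chosen after seeing the data, gave 180. The member shares past the partner's end, 1 called, became 0 with DESeq2, without the filter on low counts, with the replicate block and with the 2 kb window, and 0 to 6 without a library. The cause was not tested. No named gene reversed its direction under any alternative that gave it a value. With 2 libraries per condition, leaving out 1 assumes that the lone library varies like the others.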

Other observations

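Among the 20 measured pairs whose most used sites overlapped by over 1 kb, 4 with at least 150 read pairs in each gene are described here, chosen after their values were seen. CMAS, which activates sialic acid, and ST8SIA1, a sialyltransferase of ganglioside synthesis, overlapped by 1887 bp at their most used sites. Their molecule overlap share was 99.0% and 99.4% in DMSO and 98.5% and 99.7% in imatinib. The genomic spans of CMAS and ST8SIA1 molecules thus overlapped by at least 1 base in nearly every combination. STUB1, the ubiquitin ligase CHIP, and JMJD8 overlapped by 1076 bp, with a share of 100% in all 4 libraries.

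POLR1G, a subunit of RNA polymerase I, and ERCC1, a nuclease subunit of DNA repair, overlapped by 1112 bp with a pooled share of 98.9%. CCDC107/ARHGEF39 had the longest site overlap of the 4, 2310 bp, and the lowest share, with 53.8% and 44.9% in DMSO and 50.5% and 89.5% in imatinib. The last pair was the only one of the 4 in which a library, imatinib 2, stood more than 20 percentage points above the others. The annotated overlaps of POLR1G/ERCC1 and CCDC107/ARHGEF39 exceed 2 kb, where the 5 kb window sets part of the share.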
